A study of Mus musculus with 15 samples.

Results

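Histone gene regions were followed here as sites of open chromatin in mouse pancreatic islets. The members were all peaks that the authors' deposited tables assign to a gene whose symbol begins with a histone family prefix (Hist with a cluster number, H1f, H2af, H2ax, H2ac, H2bc, H2az, H3f, H3c or H4c). They made up 123 of 41774 listed peaks over 4 tables, and 38 of 10268 gene symbols. By table, 36 of 13111 peaks belonged to the KO-labelled against control comparison after partial pancreatectomy (PPx), and 24 of 7826 to the same comparison before PPx. The after against before PPx comparison held 37 of 12767 in KO-labelled islets and 26 of 8070 in control islets.

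Histones are the proteins around which DNA is wound: H2A, H2B, H3 and H4 form the core of the nucleosome, and H1 binds the linker DNA beside it. Most histone genes lie in clusters, are copied into mRNA mainly while DNA is replicated, and give mRNAs that end in a stem-loop instead of a poly(A) tail. Replacement variants such as H2A.Z and H3.3 are encoded outside the main clusters and are made throughout the cell cycle. Adult beta cells divide rarely, and PPx, which removes part of the pancreas, is used to make the remaining beta cells proliferate.

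Accessibility was measured with ATAC-seq (the Tn5 transposase inserts sequencing adapters where DNA is open) in islets of male mice aged 3 months. Of the 15 libraries, 4 KO-labelled and 4 control ones were from islets taken 6 days after PPx, and 3 KO-labelled and 4 control ones from before PPx. Every mouse carried Arid1a Fl/Fl and MIP-rtTA, a doxycycline-dependent activator under a mouse insulin promoter. KO-labelled mice had TRE-Cre in addition, and doxycycline turns on this Cre in cells that use that promoter. Doxycycline was given in drinking water at 1 g/L for 2 weeks, withdrawn, and followed by PPx 1 week later, per the labels' protocols. There was no sham-operated group among the libraries, and no time since doxycycline was found for the mice before PPx. In comparisons after against before PPx, the operation and any difference in time since doxycycline cannot be told apart. Arid1a belongs to the SWI/SNF complex, which moves nucleosomes. Whole islets were used, so cells without Cre, such as alpha and delta cells, are in every library.

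The depth of each library is unknown, since only group means were deposited, as log2 concentration (log2 of normalised reads per peak of 601 bp). No value per mouse can therefore be shown. The spread between libraries enters only through the authors' p-value. An implied SE of each fold was taken from it (the size of the fold over the normal quantile of p). The median log2 fold over all listed peaks was 0.61 for genotype after PPx and 0.83 for PPx in KO-labelled islets, against 0.00 for genotype before PPx and 0.16 for PPx in control islets. A more open histone promoter and a higher signal overall in the KO-labelled libraries after PPx cannot be told apart from folds of this size. In the authors' deposited tables the peak in exon 9 of Arid1a was higher under the KO label, with log2 folds of 3.64 after PPx (FDR 0.00201) and 4.28 before PPx (FDR 0.00187). For PPx in KO-labelled islets, the authors' deposited table gave this Arid1a peak a log2 fold of -1.22 (FDR 0.0584). These peaks do not measure Arid1a RNA or protein, so the groups are called KO-labelled throughout. Of 42 marker genes of islet and other cell types, 20 had a listed peak, and none of the acinar markers had one.

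The 123 peaks fell at 37 separate sites, 28 of them on chromosome 13, which carries the large histone cluster of the mouse. Each of 24 sites was listed in all 4 tables, 2 in 3 tables, 10 in 2 and 1 in 1. A peak was listed when it was called in at least 2 libraries of a comparison. In these data 11 sites appeared in no table without the KO-labelled libraries taken after PPx: H1f3, H2ac4, H2ac7, H2ac20, H2bc1, H3c2, H4c11, H4c14, H1f0, the distal peak of H3f3a and the H3f3aos promoter. Of the 36 histone peaks in the table of genotype after PPx, 10 (27.8%) were in no such table, against 28.8% of the promoter peaks and 35.3% of all peaks. Such peaks entered only through the libraries where they were called, so counts and medians over listed peaks are descriptions and do not support a difference between groups.

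Most histone peaks sat on transcription starts. Over the 92 peaks whose gene had a RefSeq start, the median distance from the peak's centre to the start was 104 bp, and 68 lay within 300 bp. At 8 sites the peak covered the starts of a divergent H2A and H2B pair, 164 to 249 bp apart, so its signal cannot be assigned to either gene. The symbol given to a shared promoter also changed between tables: the H2ac13 and H2bc13 site carried either name, as did the H1f4 and H2bc6 site and the H3c1 and H4c1 site. Counts by class below therefore follow the authors' assignment.

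The promoters of called histone genes are shown because the signal lies directly over them. They are the called promoter with the smallest FDR of the H4, H2B and replacement classes after PPx, and all 300 bases of each lie inside the listed peak. The windows run 5′ to 3′ from 250 bases before to 50 after the RefSeq start (GRCm38.p6, the mm10 build), all on the minus strand. H4c3 lies at chr13:23698409-23698708, H2bc13 at chr13:21716134-21716433 and H2az2 at chr11:6444394-6444693. Capitals mark CCAAT, a box bound by the factor NF-Y, and GGGCGG, a GC box, or their reverse complements ATTGG and CCGCCC.
H4c3: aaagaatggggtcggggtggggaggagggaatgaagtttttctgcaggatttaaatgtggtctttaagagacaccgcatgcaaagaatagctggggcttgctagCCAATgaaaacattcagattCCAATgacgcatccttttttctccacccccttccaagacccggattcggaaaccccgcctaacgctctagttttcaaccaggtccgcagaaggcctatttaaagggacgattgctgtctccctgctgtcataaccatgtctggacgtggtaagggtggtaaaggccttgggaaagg
H2bc13: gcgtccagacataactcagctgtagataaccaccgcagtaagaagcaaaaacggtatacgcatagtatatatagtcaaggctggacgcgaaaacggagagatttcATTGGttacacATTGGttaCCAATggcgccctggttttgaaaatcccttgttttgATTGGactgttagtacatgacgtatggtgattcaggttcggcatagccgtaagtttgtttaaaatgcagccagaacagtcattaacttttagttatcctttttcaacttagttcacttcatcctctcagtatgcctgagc
H2az2: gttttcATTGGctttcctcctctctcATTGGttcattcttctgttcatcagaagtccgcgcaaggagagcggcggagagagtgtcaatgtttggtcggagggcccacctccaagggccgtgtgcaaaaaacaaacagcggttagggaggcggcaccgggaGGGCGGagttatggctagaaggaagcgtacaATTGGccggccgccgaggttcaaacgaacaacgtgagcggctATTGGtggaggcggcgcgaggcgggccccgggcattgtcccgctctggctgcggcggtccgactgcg
The H4c3 window holds CCAAT 2 times, at 146 and 126 bases before the start. The H2bc13 window holds it 4 times, 3 of them as ATTGG, and 272 of its bases are also the promoter window of H2ac13, read from the other strand. The H2az2 window holds CCAAT 4 times, always as ATTGG, and a GC box 90 bases before the start. The promoter windows of H1f2 and H1f4 do not overlap their called peaks, so neither is shown: those peaks, which the authors annotate as promoters, were centred 969 and 941 bp downstream of the RefSeq start after PPx, at the end of these short genes.

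CCAAT was common in the histone windows as a group. Of 37 RefSeq histone starts under a histone peak, 89.2% had CCAAT within the 300-base window on either strand, against 37.4% of 32851 RefSeq promoters. The H4 class had it in 3 of 7 windows. Windows of divergent pairs overlap, so 1 match can count for both genes. TATAAA was found in 59.5% of the histone windows and 13.6% of all promoters. The octamer ATTTGCAT, known as the element of H2B promoters bound by Oct-1, was found in 27.0% against 1.74%. By class, the octamer stood in 5 of 12 H2A, 4 of 11 H2B and 0 of 7 H4 windows, many of the first 2 classes being shared promoters. The H1 box AAACACA was found in 8.11% of histone windows and 7.18% of all promoters, and GGGCGG in 43.2% and 35.7%. Only 1 of the 37 windows, that of H1f3, belonged to an H1 gene, and it held the H1 box. The median GC content was 45.7% in histone windows and 52.7% in all promoters. A match describes letters in a window and not a bound site, and the match of a motif may overlap that of another.

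After PPx, 8 histone peaks were more open in KO-labelled than in control islets, with folds at the scale of promoters in general. The authors' deposited table called 8 of 36 histone peaks higher and 0 lower at an FDR of 0.05 or below (22.2%), against 9.89% of all listed peaks called higher. All 8 were promoter peaks by the authors' annotation, 24.2% of the 33 histone promoters, beside 14.3% of all promoter peaks. All 36 folds were above 0, as were 90.3% of folds in the whole table. The median log2 fold was 0.69 over the histone peaks, 0.71 over all promoter peaks and 0.61 over all listed peaks. Set against the median of peaks of like concentration and promoter status, the histone median was 0.00. With every fold taken relative to the table's median of 0.61, 0 of the 8 passed at an adjusted p of 0.05.

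**Figure D1:**
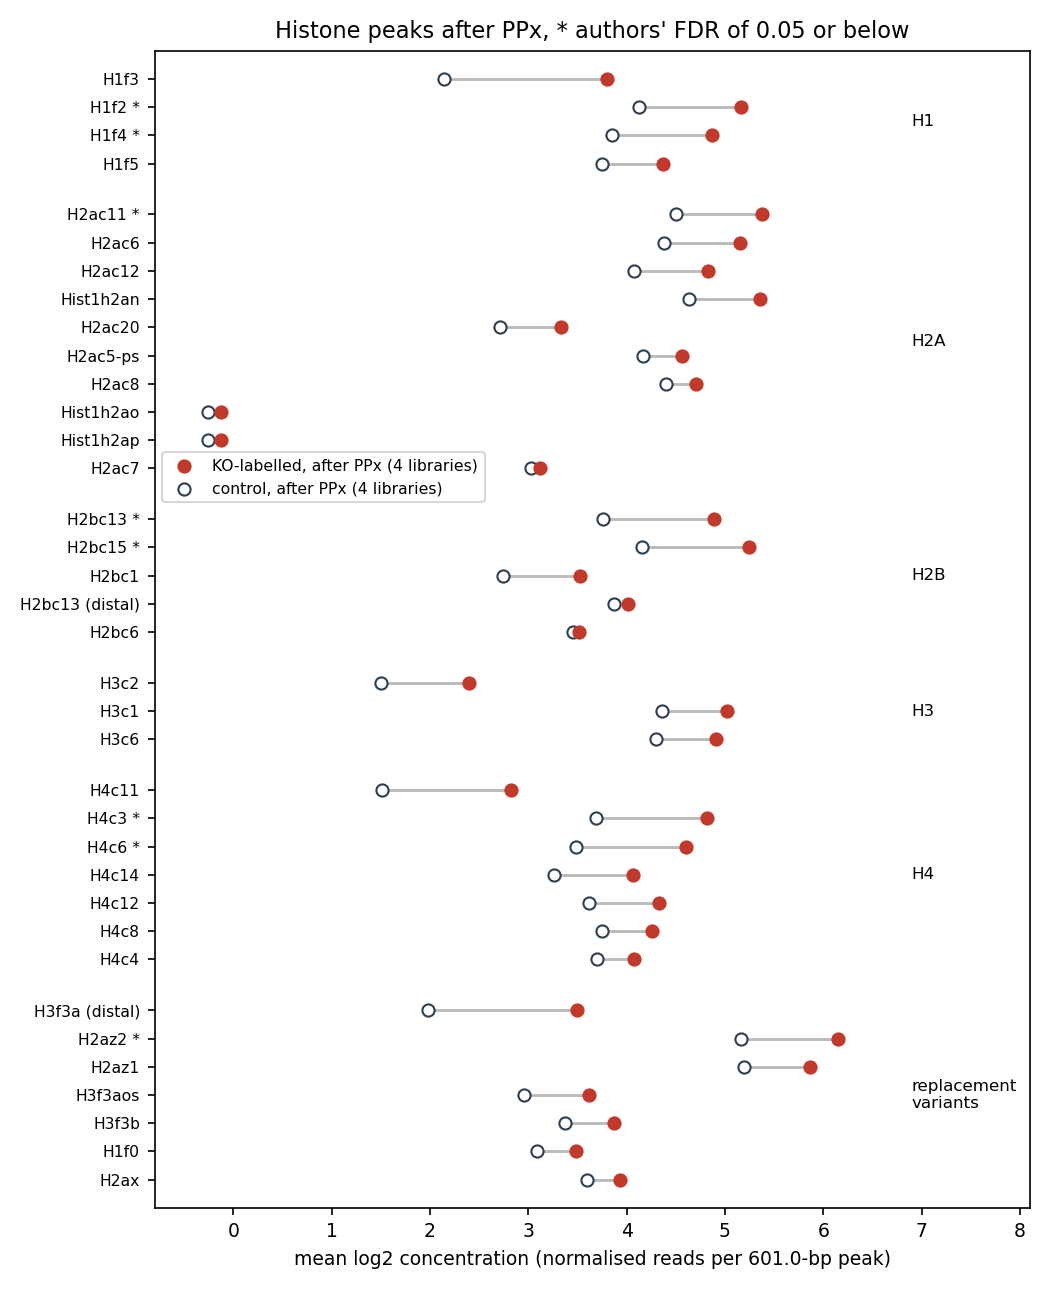
Mean log2 concentration of each of the 36 histone peaks in islets after PPx (x axis), by class (rows), for KO-labelled islets (filled) and control islets (open), each the authors' mean of 4 libraries with no error available. The filled point lies to the right of the open point in every row, and the gap runs from 0.07 at H2bc6 to 1.65 at H1f3.

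By the authors' assignment, the linker histone genes had the largest gaps of the clustered classes, with a median log2 fold of 1.02 over 4 peaks. Only the H1f3 peak covered the RefSeq start of its gene. The H1f2, H1f4 and H1f5 peaks were centred 969, 941 and 1174 bp downstream of theirs, and the H1f4 site also carried the name H2bc6. H1f2, which encodes the linker histone H1.2, averaged 5.16 in KO-labelled and 4.13 in control islets on the log2 concentration scale, and the authors' deposited table gave a fold of 1.03 (implied SE 0.38, FDR 0.0492). H1f4, which encodes H1.4, averaged 4.87 in KO-labelled and 3.85 in control islets, and its fold in the authors' deposited table was 1.02 (implied SE 0.37, FDR 0.0461). Both were higher in KO-labelled islets. Both were called as peaks in 4 of 4 KO-labelled libraries, with H1f2 called in 3 and H1f4 in 4 of 4 control libraries. H1f3, encoding H1.3, had the widest gap, at 3.80 in KO-labelled and 2.14 in control islets, with a log2 fold of 1.65 in the authors' deposited table (implied SE 0.51). It was called in 3 of 4 KO-labelled and 0 of 4 control libraries. Its unadjusted p was 0.00112, yet the authors' deposited table lists an FDR of 1, as for 12 of the 36 histone peaks, so it does not count as called. H1f5 had a fold of 0.62 in the authors' deposited table (FDR 0.157).

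Among the H2A and H2B genes the called peaks were shared promoters. The H2bc13 promoter peak, which also covers the start of H2ac13, averaged 4.89 in KO-labelled and 3.76 in control islets (log2 concentration), a fold of 1.13 in the authors' deposited table (implied SE 0.37, FDR 0.0371). The H2bc15 peak, over the starts of H2ac15 and H2bc15, averaged 5.24 in KO-labelled and 4.16 in control islets, a fold of 1.08 in the authors' deposited table (implied SE 0.36, FDR 0.0386). The H2ac11 peak, over H2ac11 and H2bc11, averaged 5.38 in KO-labelled and 4.50 in control islets, a fold of 0.88 in the authors' deposited table (implied SE 0.32, FDR 0.0467). These 3 were already called in 3 or 4 of 4 control libraries, so the difference lay in the height of peaks present in both groups. No other peak of these classes passed. H2ac6 (0.77), H2ac12 (0.75) and Hist1h2an (0.72) had log2 folds with FDR from 0.0787 to 0.0887 in the authors' deposited table. At the low end stood H2ac7 with 0.09 and H2bc6 with 0.07, both at an FDR of 1 in the authors' deposited table, and Hist1h2ao and Hist1h2ap, under 1 normalised read in both groups, with 0.13 each. H2A and H2B enter the nucleosome together as dimers. The distal peak assigned to H2bc13, several kilobases from its promoter, had a fold of 0.15 in the authors' deposited table (FDR 0.728). The H2bc1 peak, near a gene for a testis form of H2B, had a fold of 0.79 with an FDR of 1 in the authors' deposited table.

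The called H4 genes, H4c3 and H4c6, both encode the core histone H4. H4c3 averaged 4.82 in KO-labelled and 3.69 in control islets on the log2 concentration scale, with a fold of 1.13 in the authors' deposited table (implied SE 0.37, FDR 0.0357), the smallest FDR of the histone peaks. It was called in 4 of 4 KO-labelled and 2 of 4 control libraries. H4c6 averaged 4.60 in KO-labelled and 3.49 in control islets, with a fold of 1.11 in the authors' deposited table (implied SE 0.41, FDR 0.0471). The other 5 H4 peaks did not pass, and their log2 folds ran from 0.38 at H4c4 (FDR 0.408) to 1.30 at H4c11 (FDR 1) in the authors' deposited table. None of the 3 peaks of H3 genes passed. H3c1 and H3c6 had log2 folds of 0.67 (FDR 0.101) and 0.61 in the authors' deposited table (FDR 0.128), and the weak H3c2 peak had 0.89 (FDR 1).

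Of 7 peaks of replacement variants, 1 was called. H2az2, which encodes an H2A.Z protein, had the highest concentration of the histone peaks in KO-labelled islets, at 6.15 against 5.16 in control islets. Its log2 fold was 0.99 in the authors' deposited table (implied SE 0.33, FDR 0.0386), with calls in all 8 libraries. H2az1, which encodes the other H2A.Z protein, averaged 5.87 in KO-labelled and 5.19 in control islets, and its fold of 0.68 missed the threshold in the authors' deposited table (FDR 0.0887). The genes of H3.3 were much less open: H3f3b, at 3.87 in KO-labelled and 3.37 in control islets, had a fold of 0.50 in the authors' deposited table (FDR 0.291). The peak over the start of H3f3a, which the authors assign to the antisense gene H3f3aos, had a fold of 0.66 in their deposited table (FDR 1). A distal intergenic peak assigned to H3f3a had a fold of 1.51 in the authors' deposited table (implied SE 0.57, FDR 1). H1f0 and H2ax, the genes of H1.0 and of the damage-marking variant H2A.X, had folds of 0.40 (FDR 1) and 0.34 in the authors' deposited table (FDR 0.539). The H1f0 peak covers the RefSeq start of Gcat.

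Before PPx the same comparison of genotypes gave no histone call. None of the 24 histone peaks passed in the authors' deposited table (0 of 24), against 0.0128% of all listed peaks called higher (1 peak, in Arid1a), and every histone peak had an FDR of 1. By Benjamini-Hochberg over all listed p-values 0 passed too. At an unadjusted p under 0.05 there was 1 histone peak, which was lower in KO-labelled islets, beside 3.14% of all listed peaks in either direction. That peak was H3f3b, at 2.65 in KO-labelled and 3.75 in control islets (log2 concentration), a fold of -1.10 with p = 0.0499 in the authors' deposited table, called in 0 of 3 KO-labelled and 2 of 4 control libraries. The median log2 fold of the 24 peaks was -0.12, with 8 above and 16 below 0, where the median of all promoter peaks was 0.04. None of these values passed the test, so no direction is given to the group.

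Classes spread on both sides of 0 before PPx. The highest log2 folds in the authors' deposited table were 0.98 at H4c6 (p = 0.0648), 0.63 at H4c1 (p = 0.0813) and 0.61 at H2ac6 (p = 0.117), and the lowest after H3f3b was -0.62 at H2ac12 (p = 0.119). None of these peaks passed. The 4 H2B peaks ran from -0.42 at the distal H2bc13 peak to -0.13 at H2bc15 in the authors' deposited table. H1f2 and H1f4, which were called after PPx, had folds of 0.16 and 0.14 here, and H1f5 had -0.32, in the authors' deposited table. H1f2 and H1f4 thus stood close to 0. H3c6 was at -0.02 and H4c12 at -0.47 in the authors' deposited table. H2az1 and H2az2 had folds of 0.36 and 0.08 in the authors' deposited table, and were called in all 7 libraries.

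The difference between these effects of genotype was tested directly, since the tables before and after PPx share no library. Of 25 histone peaks that overlapped between the tables, 0 had a different effect at an adjusted p of 0.05 (two-sided z test on the folds and implied SEs, Benjamini-Hochberg over 7504 matched peaks), beside 0.0267% of all matched peaks. At an unadjusted p under 0.05 there were 6 histone peaks of 25, beside 14.5% of all matched peaks, and the lowest adjusted p of a histone peak was 0.304. The median difference, after minus before PPx, was 0.66 over the histone peaks and 0.64 over all matched peaks, and 24 of the 25 were above 0, as were 92.2% of all matched peaks. H3f3b differed most, by 1.60 (SE 0.69), with a fold of 0.50 after and -1.10 before PPx. H2bc13, H2ac12, H4c3 and H2bc15 followed with differences of 1.43, 1.37, 1.23 and 1.21. H2ac6, H4c6 and the H3c1 site had nearly equal folds in both states, with differences of 0.16 (SE 0.52), 0.13 (SE 0.67) and 0.04 (SE 0.49). H4c8 was the 1 peak below 0, at -0.18 (SE 0.62), matched to a peak that the table before PPx assigns to Gm11335.

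**Figure D2:**
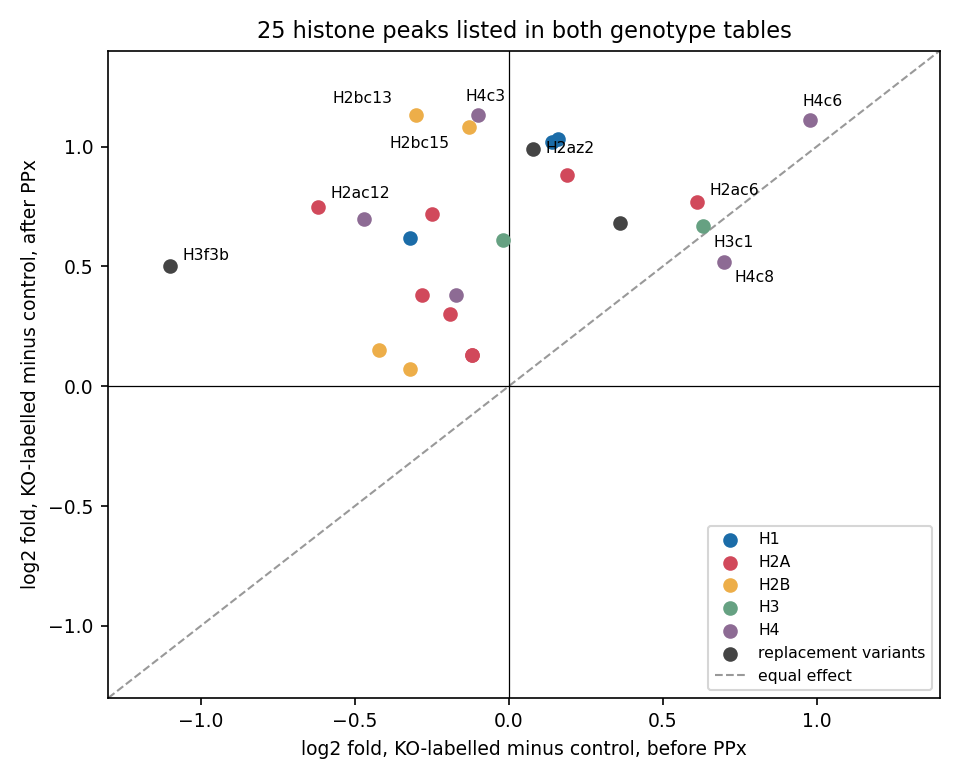
Log2 fold of KO-labelled minus control islets after PPx (y axis) against the same fold before PPx (x axis) for the 25 histone peaks listed in both tables, coloured by class. Of the 25 points, 24 lie above the dashed line of equal effect, and all lie above 0 on the y axis, while on the x axis they run from -1.10 to 0.98.

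Within KO-labelled islets, 3 histone peaks were more open after PPx than before, a share close to that of all peaks. The authors' deposited table called 3 of 37 histone peaks higher and 0 lower (8.11%), against 7.45% of all listed peaks and 9.73% of all promoter peaks called higher. All 37 folds were above 0, as were 97.1% of folds in the table. The median log2 fold was 0.83 over the histone peaks, 0.83 over all peaks and 0.86 over all promoter peaks. Relative to the table's median of 0.83, 0 of the 3 passed. This comparison uses the same KO-labelled libraries after PPx as the comparison of genotypes after PPx, so the calls of these comparisons are not independent.

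The called peaks belonged to H2A and H1 genes. The H2ac13 peak, the same shared promoter as H2bc13, averaged 4.89 after and 3.58 before PPx (log2 concentration), a fold of 1.31 in the authors' deposited table (implied SE 0.44, FDR 0.0431). H2ac12 averaged 4.83 after and 3.65 before PPx, a fold of 1.17 in the authors' deposited table (implied SE 0.39, FDR 0.0443). H1f4, at a window shifted from the one described for genotype, averaged 4.35 after and 3.10 before PPx, a fold of 1.26 in the authors' deposited table (implied SE 0.44, FDR 0.0490). All 3 were called in 4 of 4 libraries after and 3 of 3 before PPx, so the rise was in peaks already present.

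Larger folds stood at weak peaks that did not pass. H2ac4 had the widest gap, at 2.10 after and -0.06 before PPx, with a fold of 2.16 in the authors' deposited table (implied SE 1.09, FDR 1), and was called in 1 library of each group. H2ac20 (1.79, FDR 1), H3c2 (1.67, FDR 1), H3f3b (1.45, FDR 0.0587) and H1f3 (1.41, FDR 0.0584) followed in the authors' deposited table, each called in 2 or 3 of 4 libraries after and 0 of 3 before PPx. None of these weak peaks counts as called. H4c12 had the highest fold of the H4 genes, 1.24 (FDR 0.0752), and H4c8 the lowest, 0.43 (FDR 0.439), in the authors' deposited table. H2az2 had a fold of 0.99 (FDR 0.0543) and H2az1 one of 0.65 in the authors' deposited table (FDR 0.145). None of these passed either. The H2B peaks ran from 0.44 at H2bc1 to 0.83 at H2bc15 and the distal H2bc13 peak, and H3c1 and H3c6 had 0.59 and 0.79, in the authors' deposited table. At the low end were H2ac7 with 0.20, Hist1h2ao and Hist1h2ap with 0.34 each and H2ax with 0.41 in the authors' deposited table. H1f5, the lowest of the H1 genes, had 0.98 in the authors' deposited table, where all peaks had a median of 0.83. The remaining replacement peaks, H1f0, the distal H3f3a peak and H3f3aos, had folds of 1.03, 0.89 and 0.83 in the authors' deposited table.

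In control islets no histone peak was called after against before PPx. The authors' deposited table called 0 of 26 histone peaks in either direction, and 0% of all listed peaks higher, and by Benjamini-Hochberg over all listed p-values 0 histone peaks passed too. At an unadjusted p under 0.05 there was 1 histone peak, beside 2.53% of all listed peaks in either direction. That peak was H4c8, at 3.89 after and 3.01 before PPx (log2 concentration), a fold of 0.88 with p = 0.0471 and an FDR of 0.999 in the authors' deposited table. The median log2 fold of the histone peaks was 0.10, against 0.16 over all peaks and 0.15 over all promoter peaks, with 19 above and 7 below 0. Next to H4c8 stood H4c6 with 0.67 (p = 0.188) and H3c1 with 0.62 (p = 0.0557) in the authors' deposited table. The lowest folds in the authors' deposited table were -0.38 at H2bc15, -0.21 at H4c3 and -0.19 at H2ac12, all with an FDR of 0.999. The control libraries after PPx also serve as the control side of genotype after PPx, so the folds of H2bc15 and H4c3 in these comparisons are not independent. H1f2 and H1f5 had folds of 0.12 and 0.05, and H2ac5-ps, a pseudogene whose peak covers the start of H2bc3, had 0.37, in the authors' deposited table. H2bc6 had folds of 0.15 and 0.13 at its 2 listed peaks, and H3c6 had 0.18, in the authors' deposited table. None of these passed. The replacement variants had folds of 0.40 at H2ax, 0.36 at H2az1, 0.08 at H2az2 and -0.11 at H3f3b in the authors' deposited table.

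**Figure D3:**
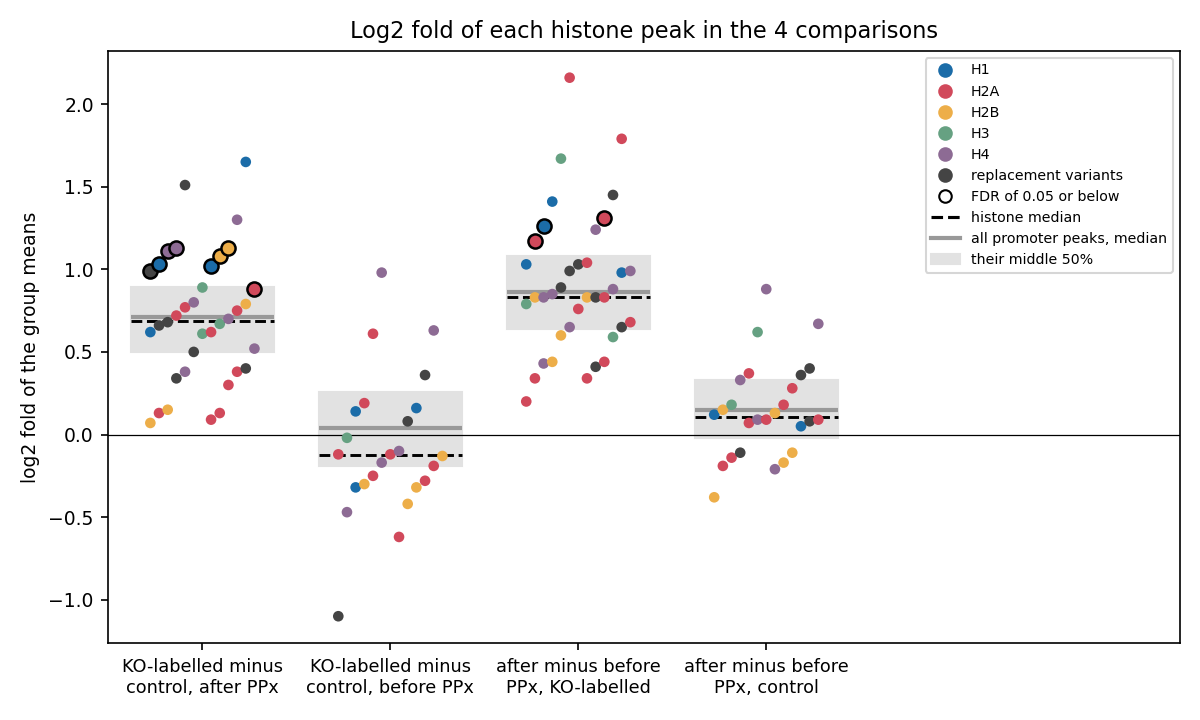
Log2 fold of the group means (y axis) of every histone peak in the 4 comparisons (x axis), coloured by class and ringed in black at the authors' FDR of 0.05 or below. Dashed black lines are histone medians (0.69, -0.12, 0.83 and 0.10 from left to right), grey lines and bands the median and middle 50% of all promoter peaks, and 8 and 3 peaks are ringed in the comparisons of genotype after PPx and of PPx in KO-labelled islets.

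The number of libraries in which a peak was called was also deposited. It did not always follow concentration: Hist1h2ao and Hist1h2ap, under 1 normalised read, were called in every library after PPx. Peaks were listed by these same calls, so the shares describe the listed peaks and are no separate support. After PPx, histone peaks were called in 119 of 144 peak and library pairs in KO-labelled islets (82.6%) and 77 of 144 in control islets (53.5%). Promoter peaks overall were called in 79.4% of pairs in KO-labelled and 45.9% in control islets. Before PPx the histone shares were 81.9% in KO-labelled and 77.1% in control islets, beside 76.2% and 64.5% for all promoter peaks. In KO-labelled islets, histone peaks were called in 81.1% of pairs after and 57.7% before PPx, and promoter peaks in 79.5% after and 55.0% before. In control islets the histone shares were 72.1% after and 73.1% before PPx, and the promoter shares 65.1% after and 65.5% before. The set of listed peaks differs between tables, so shares are compared within a table only, and no test was made of them. After PPx, 9 of 36 histone peaks, H1f3, H4c14 and H3f3b among them, were called in no control library, beside 2096 of 8050 promoter peaks and 28.4% of all listed peaks. Every one of the 36 was called in at least 1 KO-labelled library, as were all but 8 of 8050 promoter peaks and all but 84 of 13111 listed peaks.

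**Figure D4:**
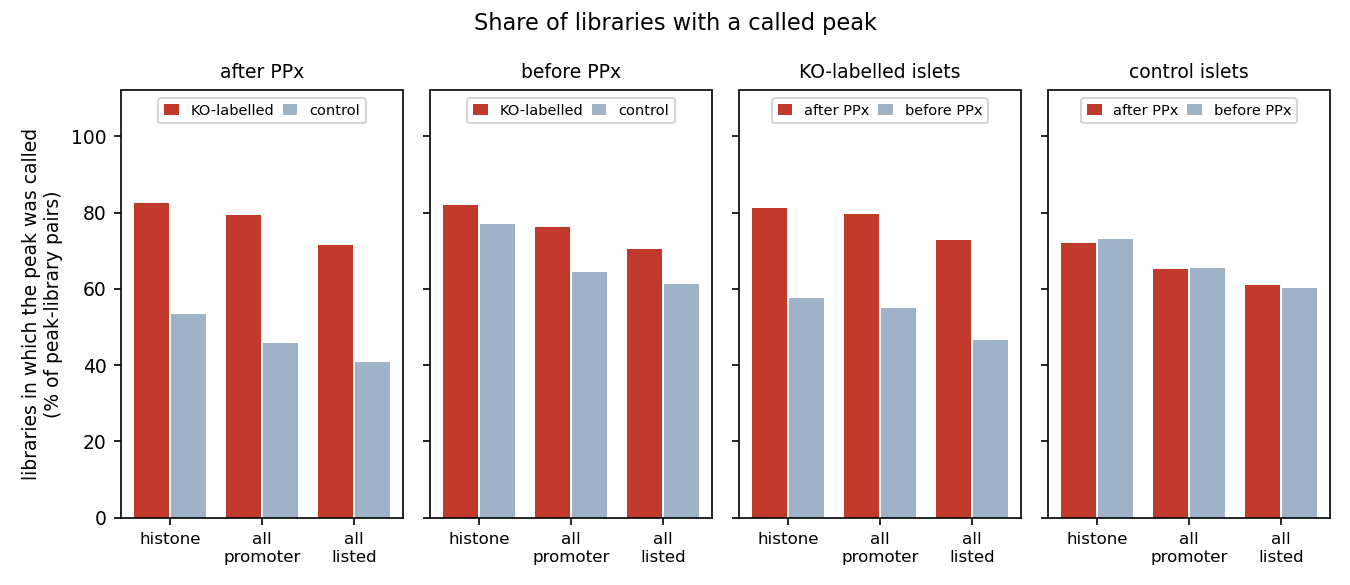
Share of peak and library pairs with a called peak (y axis, percent) for histone peaks, all promoter peaks and all listed peaks in each of the 4 tables, with no error shown. In the panel after PPx the histone bars stand at 82.6% in KO-labelled and 53.5% in control islets, and in the panel of control islets at 72.1% after and 73.1% before PPx.

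The genes that supply histones were described in the same tables. The list held 46 genes of histone mRNA transcription and 3′ end processing and of histone chaperones, of which 31 had a listed peak. After PPx the authors' deposited table called 4 of their 36 peaks higher in KO-labelled islets and 0 lower (11.1%, near the 9.89% of all listed peaks), with a median log2 fold of 0.66 beside 0.61 over all peaks. Lsm11, a subunit of the U7 snRNP that cuts histone pre-mRNA, averaged 4.23 in KO-labelled and 2.64 in control islets at a peak downstream of the gene, a fold of 1.59 in the authors' deposited table (implied SE 0.46, FDR 0.0267). Eri1, an exonuclease that trims the histone mRNA end, averaged 4.45 in KO-labelled and 2.95 in control islets at its promoter, a fold of 1.50 in the authors' deposited table (implied SE 0.42, FDR 0.0265). Hat1, the acetyltransferase of newly made H4, averaged 4.26 in KO-labelled and 2.78 in control islets, a fold of 1.47 in the authors' deposited table (implied SE 0.42, FDR 0.0265). None of these 3 peaks was called in a control library, while each was called in 3 or 4 KO-labelled libraries. A peak without a control call could be listed only through its KO-labelled calls, so this pattern is a description and no separate support. Ubn2, of the HIRA complex that deposits H3.3, averaged 5.08 in KO-labelled and 3.94 in control islets, a fold of 1.13 in the authors' deposited table (implied SE 0.35, FDR 0.0325).

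Within KO-labelled islets 3 of 36 peaks of the list were called higher after PPx (8.33%, near the 7.45% of all listed peaks). Hat1 and Ubn2 were among these, with log2 folds of 1.80 (FDR 0.0282) and 1.51 (FDR 0.0353) after against before PPx in the authors' deposited table. Nasp, a chaperone that holds H3 and H4, was the third, at 3.83 after and 2.31 before PPx, a fold of 1.52 in the authors' deposited table (implied SE 0.54, FDR 0.0491), and it did not pass by Benjamini-Hochberg over all listed p-values (adjusted p = 0.0579). The list had 0 of 26 peaks called for genotype before PPx and 0 of 25 for PPx in control islets, with 0 at an unadjusted p under 0.05 and 0 by Benjamini-Hochberg over all listed p-values in both. Slbp, whose protein binds the histone stem-loop, had a promoter fold of 0.66 after PPx (FDR 0.142) in the authors' deposited table and was not called.

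Markers of dividing cells were read beside the histone genes, because histone genes are used in S phase. Of 6 such markers, 5 had a listed peak. After PPx, 1 of 6 peaks was called in the authors' deposited table, where 9.89% of all listed peaks were called higher. It was the promoter of Ccna2, a cyclin gene, at 5.88 in KO-labelled and 4.90 in control islets with a fold of 0.98 (FDR 0.0493). The median log2 fold of the 6 peaks was 0.57, beside 0.61 over all listed peaks. Their summed signal was 130 normalised reads in KO-labelled and 79.6 in control islets, with Ccna2 giving 58.9 and 29.9 of these. Within KO-labelled islets 0 of 6 were called (0 at an unadjusted p under 0.05), beside 7.45% of all listed peaks called higher. Their summed signal was 130 after and 75.6 before PPx. Their median log2 fold was 0.725, beside 0.83 over all listed peaks. In control islets 0 of 5 were called (0 at an unadjusted p under 0.05), with 83.1 after and 84.1 before PPx. The median log2 fold was -0.03, beside 0.16 over all listed peaks. Mki67 had no listed peak here and Pcna had none in the comparisons above, so sums are not compared across these comparisons. For genotype before PPx 0 of 4 dividing-cell peaks were called (0 at an unadjusted p under 0.05). Their summed signal was 77.4 in KO-labelled and 82.7 in control islets. Their median log2 fold was -0.39, beside 0.00 over all listed peaks. Of all 33 peaks of the cell type list, dividing cells included, 4 were called higher for genotype after PPx and 0 lower (12.1%, beside 9.89% of all listed peaks). The beta cell markers had 2 of 12 called in the authors' deposited table. These were the promoters of Ins1, an insulin gene (fold 1.49, FDR 0.0154), and of the transcription factor Nkx6-1 (fold 1.05, FDR 0.0360). The 12 beta cell folds ran from -0.15 to 1.52, with a median of 0.61, the same as over all listed peaks. The 1 delta cell peak, a distal one assigned to the hormone gene Sst, was called with a fold of 1.12 in the authors' deposited table (FDR 0.0294). Markers of alpha (0 of 4), ductal (0 of 2), endothelial (0 of 5), fibroblast (0 of 2) and leukocyte cells (0 of 1) had none called, and acinar markers had no listed peak. For PPx in KO-labelled islets 1 of 28 was called (3.57%, beside 7.45% of all listed peaks). It was an intronic peak of Slc30a8, the zinc transporter of insulin granules, with a fold of 1.56 in the authors' deposited table (FDR 0.0484). For genotype, the overlapping Slc30a8 peak had folds of -1.45 before PPx (p = 0.0011) and -0.15 after PPx in the authors' deposited tables. For genotype before PPx 0 of 13 were called and for PPx in control islets 0 of 17, with 2 and 0 at an unadjusted p under 0.05 and 0 by Benjamini-Hochberg over all listed p-values. The 2 were the Slc30a8 peak, which was lower in KO-labelled islets, and the Ins1 promoter, which was higher (fold 0.95, p = 0.0307 in the authors' deposited table). The part of cell division or cell mixture in the histone folds was not tested, and in bulk islets more cells with an open site and a more open site per cell cannot be told apart.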

How the data were processed

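Each ATAC-seq library was made from 40000 islet cells and read from 1 end over 75 bp, per the labels' protocols. cutadapt, BWA, MACS, DiffBind and ChIPseeker were used on mm10, per the submitters' processing notes, without versions or settings. What the authors deposited is 4 tables of group means: log2 concentrations, log2 folds, a p-value and an FDR per peak, and the number of libraries with a called peak. How libraries were scaled is not given in these sources. Depth and values per library are not analysed here.

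Repeated rows were removed (5281 and 1197 in the tables of genotype after and before PPx, and 4588 and 1337 in those of PPx in KO-labelled and control islets), as was 1 blank row. Folds were turned so that a positive fold is higher in KO-labelled islets or after PPx. A peak was called at the authors' deposited FDR of 0.05 or below. In both tables with KO-labelled libraries after PPx, many peaks, most of them of low concentration, have a deposited FDR of 1 whatever their p-value, among them 3 and 2 histone peaks with p under 0.05. A p-value was read as measuring spread between the libraries of a group, each numbered sample being taken as a separate mouse. The test behind it is not given in these sources. The implied SE of folds under 0.1, or with p of 0.95 and above, was the median of 1 of 40 bins of concentration.

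Sequences and starts are RefSeq's for GRCm38.p6: 34 of 38 member symbols matched a RefSeq symbol and 30 had a promoter sequence. The Benjamini-Hochberg adjustment and the test of the difference were run on simulated folds. Those folds were drawn with the implied SEs, so the run does not check the SEs themselves. Python 3.11.15, pandas 2.3.3, SciPy 1.17.1 and matplotlib 3.10.9 were used. Alternatives were another FDR, another adjustment, centred folds, 1 peak per gene, promoters alone and repeated rows kept, and 3 sets of members left out that were chosen after seeing the data. Genes named are all called histone and supply peaks, the highest and lowest fold of each histone class per comparison, the replacement variants and Arid1a, and some neighbours of these in rank or site chosen after their values were seen. The members and lists were chosen with earlier results of these data known.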

Additional observations from a re-analysis of the deposited data

How the results depend on the processing

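At an FDR of 0.01 the called histone peaks numbered 0 for genotype after PPx and 0 for PPx in KO-labelled islets, and the supply list had 0 in both. Adjusted by Benjamini-Hochberg over all listed peaks, the histone counts were 2 and 0: H4c3 stayed and H1f3 was added. The supply counts were then 4 and 2, without Nasp. With folds centred on the table's median, the histone counts were 0 and 0 and the supply counts 0 and 0. The whole tables moved likewise, to 2 peaks higher and 50 lower for genotype after PPx, and 0 in either direction for PPx in KO-labelled islets. Centring also took the histone median for genotype after PPx to 0.08, or 0.00 within 10 bins of concentration and promoter class, and that for PPx in KO-labelled islets to 0.00 or -0.01. Every called fold stayed above 0 when centred, from 0.27 to 0.52. These peaks were called for high folds in the same tables, so this is a description and no separate support. Taking 1 peak per gene, promoters alone or repeated rows kept changed no histone count by over 1.5 times, and neither did leaving out peaks over no RefSeq histone gene, Hist1h2ao with Hist1h2ap, or H3f3aos with H2ac5-ps, 3 choices made after seeing the data. The test of the difference called 0 histone peaks under each of its settings. No paired analysis was possible because the tables hold group means and the groups share no replicate numbers, and no replicate could be left out for the same reason. With 3 or 4 libraries a group and a median implied SE of 0.38 to 0.49 over all peaks, small changes at single promoters could not be resolved.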

Other observations

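The Hist1h2ao and Hist1h2ap peaks stood at the lowest concentration of their tables, at -0.13 in KO-labelled and -0.26 in control islets after PPx, under 1 normalised read. Each was nonetheless called in all 8 libraries of that table. Of 152 peaks at that lowest concentration, 9 were called in every library, these 2 among them. They lie over histone genes with near-identical copies, so their values are uncertain, and the cause was not tested.

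Peaks assigned to predicted genes also covered histone starts, and 5 histone starts lay only under such peaks. On chromosome 3, Gm20628 covers the start of H2bc18, at 4.13 in KO-labelled and 3.34 in control islets after PPx with a log2 fold of 0.80 in the authors' deposited table (FDR 0.119). Gm20633, over the start of H2ac18, was at 1.81 in KO-labelled and 2.66 in control islets, a fold of -0.84 in the authors' deposited table (FDR 1), against the direction of all 36 histone peaks there. It was called in 4 of 4 KO-labelled libraries and 1 of 4 control libraries.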
